A study of Mus musculus with 6 samples.

Results

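The cytosolic ribosomal protein genes were taken as all gene probes whose array name is Rpl or Rps followed by a number, with an optional a, x, l or y ending, together with Rplp0, Rplp1, Rplp2 and Rpsa. The Rps6k kinases, which share the Rps letters but are enzymes, were left out. This gave 183 probes for 83 genes, among 36084 genes and unnamed transcripts on the array. The heart samples came from male C57BL/6 mice that the labels give as 8 weeks old. All had a ligation of the left anterior descending coronary artery, which causes a myocardial infarction, and all were harvested 21 days after it. A group of 3 had received 80 mg/kg of an antagomir, a modified antisense oligonucleotide that blocks a microRNA, directed at miR-433, by tail vein on 3 consecutive days. The other group of 3 had received the scrambled control, also at 80 mg/kg and on 3 days. Each sample was hybridised to a 1-colour array. The study asked whether blocking miR-433 prevents cardiac fibrosis. All samples were from infarcted hearts, so an uninjured heart is not part of the comparison, and the labels do not say which part of the heart was taken. The labels do not state that each array came from a separate mouse, so p-values measure the spread between these samples, which may be technical.

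The cytosolic ribosome translates all nuclear-encoded mRNAs outside the mitochondria. Its small subunit, built on 18S rRNA with the Rps proteins, reads the mRNA, and its large subunit, with the Rpl proteins, joins the amino acids. The acidic stalk of the large subunit, formed by Rplp0, Rplp1 and Rplp2, recruits the GTPase factors of translation. Most ribosomal protein genes are transcribed together in proportion, and their mRNAs begin with a run of pyrimidines, the TOP motif, through which the kinase mTOR controls their translation. The array measures the amount of these mRNAs and not their translation. A few members have paralogs with restricted expression. Rpl3l replaces Rpl3 in ribosomes of heart and skeletal muscle, and Rpl10l and Rpl39l are best known from the testis.

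No ribosomal protein gene passed the test, and most measured much the same in both groups. No member differed between the groups past the threshold of 0.05 for the adjusted p-value, and none had an unadjusted p under 0.05, against 0.013% and 7.21% of the 22991 genes tested. Of the 82 members that were tested, 70 measured higher with the antagomir and 12 lower, with a median log2 fold change of 0.10. The median over all genes tested was 0.09, and 62.6% of them were higher, so the members as a set lay at the level of all genes. Their direction was set by the scaling: with quantile scaling of the arrays, and in the authors' deposited table, 15 members were higher and 67 lower. Quantile scaling shifted the all-gene median to -0.03 from 0.09, and the median of the members then lay 0.05 below it, at -0.07.

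The spread of the members was narrow. The middle 90% of the members lay between -0.19 and 0.25 on the log2 scale, and that of all genes between -0.66 and 0.79. Within 0.25 of no change lay 90.2% of the members and 54.7% of all genes. The median within-group standard deviation (SD) of a member was 0.10, against 0.27 for all genes, and the median standard error (SE) of a member's log2 fold change was 0.13. These probes are bright: the median signal of the tested members lay between 60003 and 67762 units on the 6 arrays, no spot of any gene was saturated, and 81 of the 82 were well above background on all arrays. The narrow spread was not set against probes of like brightness. Whether fewer cells of a type or less RNA per cell underlies a level cannot be told apart in whole tissue.

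**Figure D1:**
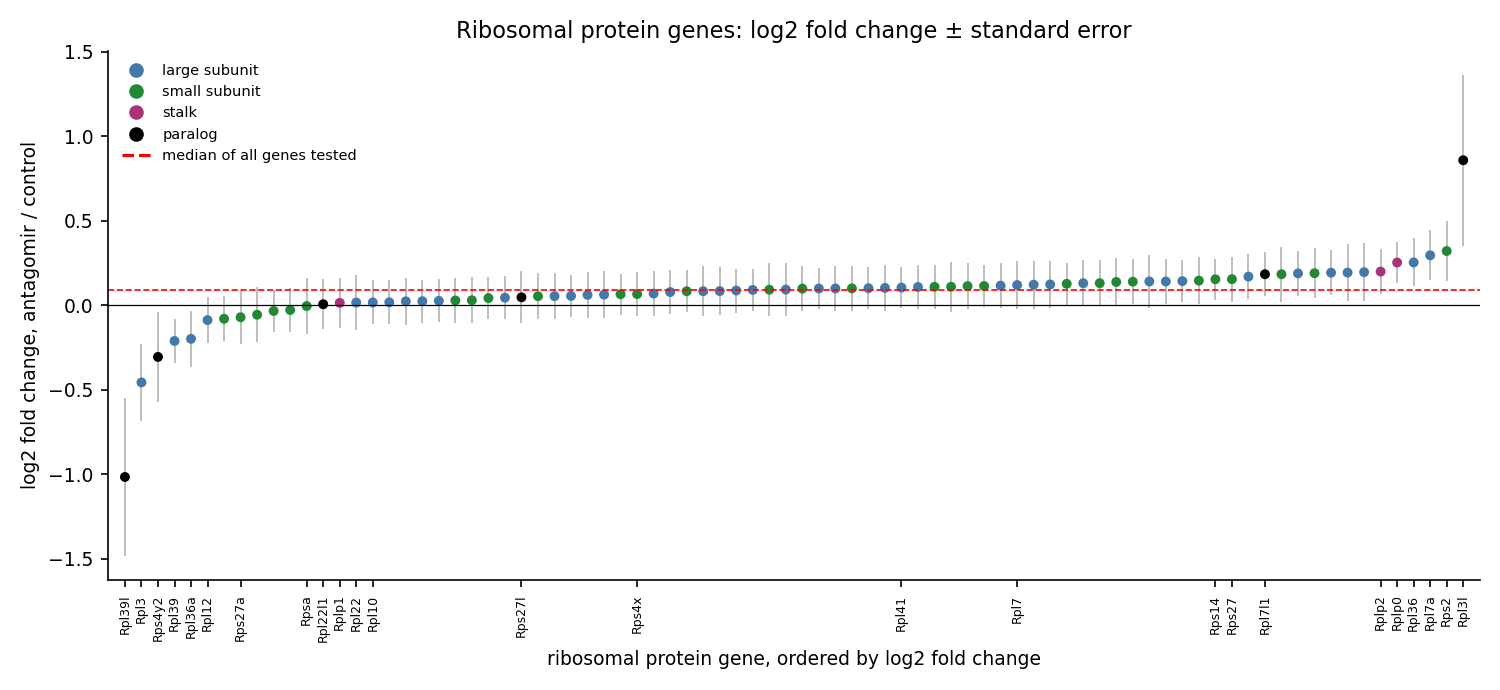
Log2 fold change (antagomir over control, vertical axis) of the 82 tested ribosomal protein genes, ordered by size with 25 of them named, with bars of 1 SE from the fit of 3 against 3 arrays. Points of the large subunit, the small subunit, the stalk and the paralogs are coloured apart, and the dashed line is the median of all genes tested, 0.09 on this scaling. Most points lie close to that line, and Rpl3l at 0.86 and Rpl39l at -1.02 stand farthest from it.

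Array by array, the groups overlapped. Relative to the mean of the control arrays, the median member stood at -0.03 on control 1, -0.03 on control 2 and 0.06 on control 3. It stood at 0.10 on antagomir 1, 0.15 on antagomir 2 and -0.01 on antagomir 3. Antagomir 3 thus lay within the range of the control arrays, and antagomir 2 was the highest. On antagomir 2, 75 of the 82 members were above their control mean, as they also were on control 3, and on antagomir 3 it was 37. Unscaled, the order was different. The median signal of the tested members was 66237, 66282 and 67762 units on controls 1 to 3, and 60003, 65698 and 61736 units on antagomirs 1 to 3, so every antagomir array was below every control array. The 75th percentile that scaled each array was also lower on the antagomir arrays, at 428 to 458 units, than on the control arrays, at 504 to 551 units.

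**Figure D2:**
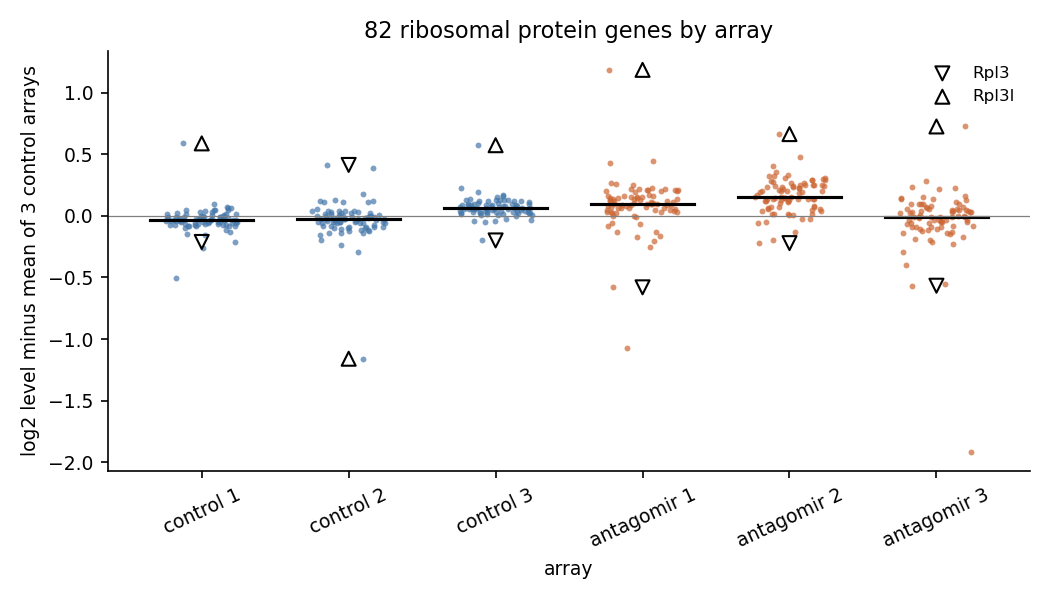
Log2 level of each of the 82 tested members minus its mean over the 3 control arrays (vertical axis), by array; black lines are medians and triangles mark Rpl3 and Rpl3l. The medians of antagomir 1 and 2 lie above those of the control arrays on this scaling and that of antagomir 3 lies among them, while Rpl3l is lowest and Rpl3 highest on control 2.

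One array stood apart in its share of spots above background. Antagomir 3 had 73.6% of its gene spots well above background, against 55.2% to 58.5% on the other 5. The excess was among probes rich in purines. Of the dim probes with 60% purine or more, 82.4% were well above background on antagomir 3, and between 0.83% and 2.97% on the other arrays. Between 97.4% and 99.5% of the member spots were well above background on each array, and 68 of the 82 members had their lowest antagomir level on antagomir 3. The part of this array's difference in the members' values was not tested. Without antagomir 3, the median of the members was 0.13 and 75 of the 82 were higher. The 14 cardiomyocyte markers, such as Myl2 and Tnni3, were all among the genes tested, so each was well above background on at least 3 arrays.

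The large and small subunits had similar medians, both above 0 on this scaling and below 0 with median scaling. Of 43 large-subunit members other than the stalk and the paralogs, 39 were higher with a median log2 fold change of 0.09. Of 30 small-subunit members other than the paralogs, 24 were higher with a median of 0.10. The largest values on the higher side, paralogs aside, were those of Rps2, Rpl7a, Rplp0 and Rpl36, none of them past the threshold.

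Rps2, a small-subunit protein near the mRNA entry channel, had scaled levels (log2 signal over the array's 75th percentile) of 7.83, 7.43 and 7.92 on controls 1 to 3, and of 8.17, 7.96 and 8.01 on antagomirs 1 to 3. All antagomir arrays were above all control arrays, by a margin that was small beside the distance of control 2 from the other controls. The log2 fold change was 0.32 (SE 0.18, n = 3 and 3, adjusted p = 0.69 by limma), and 0.17 without control 2. The probe that stands for Rps2 has its design position at chr17:42864841-42864900 (mm9), away from the gene, and the second Rps2 probe, at chr17:24857583-24857642, gave 0.41, with an unadjusted p of 0.046 that was the only one under 0.05 among 179 member probes tested one by one. Its adjusted p was 0.72.

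Rpl7a, a large-subunit protein, measured 5.76, 5.86 and 6.05 on the control arrays and 6.32, 6.12 and 6.11 on the antagomir arrays, with no overlap and a log2 fold change of 0.29 (SE 0.15). Rpl36, another large-subunit protein, measured 7.77, 7.61 and 7.88 on the control arrays and 8.00, 8.11 and 7.90 on the antagomir arrays, with a log2 fold change of 0.25 (SE 0.14). Both had an adjusted p of 0.69. With quantile scaling their values were 0.17 and 0.05, and with median scaling Rps2, Rpl7a, Rpl36 and Rplp0 all lay below 0, at -0.15, -0.18, -0.22 and -0.22. The median signal used there was 77.8 units on antagomir 3 and 26.2 to 34.8 units on the other arrays. Median scaling thus lowers all values of antagomir 3.

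The stalk proteins had log2 fold changes from 0.01 to 0.25, which were not tested against each other. Rplp0, the stalk base and a common reference gene in quantitative PCR, measured 8.18, 8.21 and 8.25 on the control arrays and 8.42, 8.53 and 8.45 on the antagomir arrays. All antagomir arrays were above all control arrays, with a log2 fold change of 0.25 (SE 0.12, 95% confidence interval -0.05 to 0.55, adjusted p = 0.69), but the value was 0.02 with quantile scaling. Rplp2, which dimerises with Rplp1 on that base, measured 8.42, 8.23 and 8.47 against 8.58, 8.63 and 8.51, a log2 fold change of 0.20 (SE 0.13) that was 0.13 without control 2 and -0.02 with quantile scaling. Its partner Rplp1 measured 7.75, 7.93 and 7.78 against 7.81, 8.00 and 7.69, with overlapping groups and a log2 fold change of 0.01 (SE 0.15), or -0.17 with quantile scaling.

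The members with the highest scaled probe levels were Rps14, a small-subunit protein, and Rpl41, the smallest protein of the ribosome; this ranks probes, not transcripts. Rps14 measured 8.56, 8.63 and 8.64 on the control arrays and 8.72, 8.83 and 8.73 on the antagomir arrays, with a log2 fold change of 0.15 (SE 0.12). Rpl41 measured 8.55, 8.52 and 8.63 against 8.70, 8.71 and 8.60, with a log2 fold change of 0.10 (SE 0.12). For both genes the difference was close to that of the median gene. Rpsa, which also occurs as a laminin receptor, gave a difference of -0.005 on the log2 scale (SE 0.16). Rps27a, made as a fusion with ubiquitin, gave -0.07 (SE 0.16), and the groups overlapped on both.

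The groups did not overlap on 17 members. The antagomir arrays were all higher on 15 of 82, which is 18.3% of the members against 8.78% of all genes tested. They were all lower on 2 of 82, or 2.44% against 6.93%. Those on the higher side included Rpl3l, Rps2, Rpl7a, Rplp0, Rpl36, Rplp2, Rpl24, Rpl27, Rpl7l1, Rpl8, Rps14, Rps29 and Rpl13a, and the pair on the lower side was Rpl3 and Rpl39. This count also turned with the scaling: with quantile scaling 0 of 82 members were separated upward against 6.75% of all genes, and 10 of 82, or 12.2%, downward against 10.5%. Rpl3 and Rpl39 stayed separated downward with quantile scaling. Over 9 other settings Rpl3 was separated downward in 6 and Rpl39 in 8, and neither was with the mean of a gene's probes.

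Rpl3 and its muscle paralog Rpl3l had values of opposite sign, and they lay farthest from 0 among the members that were well above background on all arrays. Rpl3 is a core large-subunit protein that reaches towards the peptidyl transferase centre. The probes that stand for them overlap when their sequences are laid against each other, and they are printed here because the paralogs are alike in sequence and a probe could bind both mRNAs. Capitals mark the bases that face each other when the end of the Rpl3l probe is laid on the start of the Rpl3 probe without gaps. Of the 27 facing bases 20 are identical. Binding of either probe to the other mRNA was not tested. Both design positions are longer than the 60-base probes, which join bases from more than 1 exon: the Rpl3l probe lies at chr17:24872413-24872681 on the plus strand and the Rpl3 probe at chr15:79908489-79908772 on the minus strand (mm9).
Rpl3l probe: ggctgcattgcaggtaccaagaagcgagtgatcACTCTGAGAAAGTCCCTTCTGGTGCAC
Rpl3 probe: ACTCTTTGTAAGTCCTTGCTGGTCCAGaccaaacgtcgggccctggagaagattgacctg

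On Rpl3, the scaled levels were 6.24, 6.87 and 6.26 on controls 1 to 3, and 5.87, 6.23 and 5.89 on antagomirs 1 to 3. The antagomir arrays were all lower, although antagomir 2 lay only just below controls 1 and 3. The log2 fold change was -0.46 (SE 0.23, 95% confidence interval -1.01 to 0.10, adjusted p = 0.69), and a second Rpl3 probe gave -0.38. On Rpl3l, the levels were 5.86, 4.12 and 5.85 on the control arrays and 6.46, 5.94 and 6.00 on the antagomir arrays. Control 2 was far below every other array, and the remaining control arrays lay just under antagomir 2. The log2 fold change of Rpl3l was 0.86 (SE 0.51, 95% confidence interval -0.38 to 2.09, adjusted p = 0.69).

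A single control array decided the size of both differences. Without control 2 the log2 fold change of Rpl3l was 0.28 and that of Rpl3 was -0.25. The difference of the 2 probes, Rpl3l minus Rpl3, has no meaning as a level, but a single scaling value per array leaves it unchanged. It was -0.38, -2.75 and -0.41 on controls 1 to 3, and 0.59, -0.29 and 0.11 on antagomirs 1 to 3. Every antagomir array was above every control array, and the means were -1.18 ± 1.36 (SD, n = 3) and 0.13 ± 0.44 (SD, n = 3). The shift of 1.31 had a two-sided exact permutation p of 0.1, the smallest that 3 against 3 arrays can give. The groups did not overlap on either gene, in opposite directions, so no other p was possible. It therefore adds nothing to that separation. Without control 2 the shift was 0.53. Taken with the second Rpl3 probe the shift was 1.23, but antagomir 2, at -0.38, then lay below controls 1 and 3, at -0.11 and -0.26, and the exact permutation p was 0.3.

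**Figure D3:**
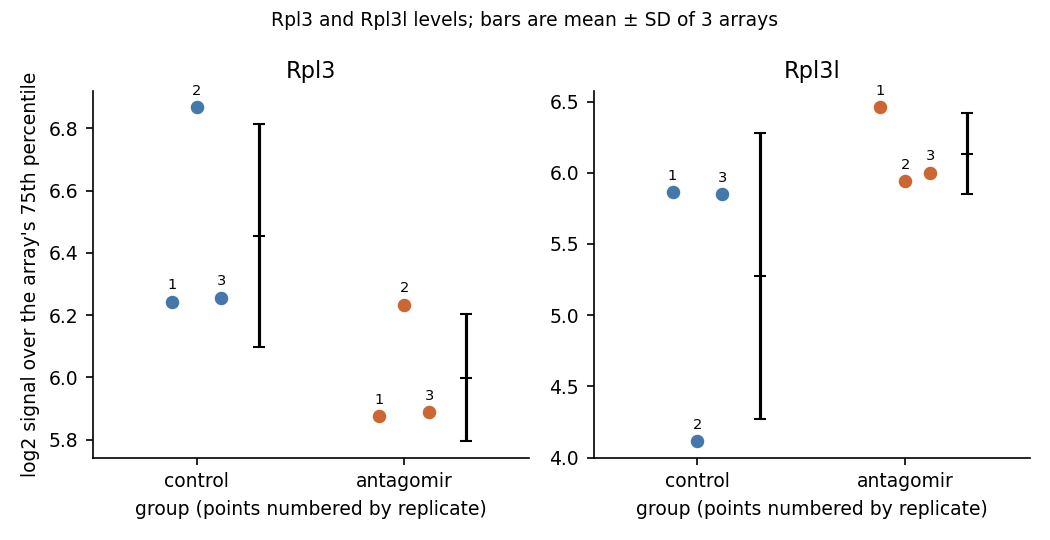
Scaled log2 levels of Rpl3 and Rpl3l on the 6 arrays, with the group mean and SD of 3 arrays beside the points and replicate numbers above them. Control 2 is the highest point of Rpl3 at 6.87 and the lowest of Rpl3l at 4.12; the vertical axes differ and neither starts at 0.

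Control 2 also had the lowest summed level of cardiomyocyte markers and the highest of fibroblast markers. The summed linear level of the 14 cardiomyocyte markers, in multiples of the array's 75th percentile, was 5675, 4926 and 5808 on controls 1 to 3 and 6475, 5967 and 6354 on antagomirs 1 to 3. All 14 were higher with the antagomir and none passed the threshold, also without adjustment, with a median log2 fold change of 0.23, although with quantile scaling 7 of 14 were higher and the median was 0.01. The summed level of the 12 fibroblast markers was 1163, 1388 and 1066 on the control arrays and 625, 843 and 557 on the antagomir arrays. All 12 were lower, with a median of -1.13. Before adjustment 7 of the 12 had p under 0.05, and after it 0 passed. The fibroblast values ran from -3.71 to -0.0016, so the smallest of them was practically no change. The cardiomyocyte values ran from 0.07 to 0.45. The part of these markers in the Rpl3 and Rpl3l values was not tested. Atrial markers ranged as widely within groups as between them, with summed levels of 409 to 671 on the control arrays and 42.3 to 839 on the antagomir arrays. Antagomir 2, where the median member was highest, also stood apart in immune markers. Their summed level there was 25.6 for lymphocyte markers, against 5.41 to 6.33 on the other arrays. For macrophage and monocyte markers it was 152.0, against 67.3 to 106.9. Without antagomir 2 the members' median log2 fold change was 0.04. The part of the immune markers in the members' values was not tested.

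Rpl39 and Rpl36a also lay on the lower side. Rpl39, a small protein lining the exit tunnel of the large subunit, measured 6.52, 6.66 and 6.64 on the control arrays and 6.40, 6.47 and 6.31 on the antagomir arrays. The groups did not overlap, and the log2 fold change was -0.21 (SE 0.13, adjusted p = 0.69); its 3 probes ranged from -0.21 to -0.05. Rpl36a, also of the large subunit, measured 5.49, 5.70 and 5.54 against 5.33, 5.63 and 5.18, with overlap and a log2 fold change of -0.20 (SE 0.17), or -0.10 without antagomir 3. Rpl12, part of the stalk's rRNA-binding base, had -0.09 (SE 0.14), or -0.03 without control 2. Rpl3, Rpl39, Rpl36a, Rpl12 and Rpl39l were below 0, and Rpl3l above 0, in each other processing setting run on genes that gave them a value, 18 for Rpl39l and 19 for the rest, and none passed the threshold in any of these.

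Among the other paralogs, Rpl39l had the lowest log2 fold change of the tested members and the dimmest probe. Its unscaled signals were 32.4, 43.4 and 41.2 units on the control arrays and 15.0, 30.8 and 9.3 units on the antagomir arrays, and its probe was well above background on 3 of 3 control but 1 of 3 antagomir arrays. The log2 fold change of -1.02 (SE 0.47, unadjusted p = 0.072, adjusted p = 0.69) therefore compares signals close to background, and the groups overlapped. Without antagomir 3 it was -0.57, and over the other settings it ran from -0.37, with normexp background and quantile scaling, to -1.50, without antagomir 2. Rps4y2, an old array name for Rps4l, a copy of Rps4x, measured 2.42, 3.31 and 3.05 on the control arrays and 2.76, 2.73 and 2.37 on the antagomir arrays, a log2 fold change of -0.31 (SE 0.27) beside 0.07 (SE 0.13) for Rps4x. The Rps4y2 value was -0.11 without control 2, -0.56 without control 1, -0.18 without antagomir 3 and 0.10 with array weights.

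Rpl7l1, a homolog of Rpl7, measured -0.75, -0.87 and -0.67 on the control arrays and -0.55, -0.56 and -0.63 on the antagomir arrays. The groups did not overlap, and its log2 fold change was 0.18 (SE 0.13) beside 0.12 (SE 0.14) for Rpl7. Rpl22l1 had 0.01 (SE 0.15) beside 0.02 (SE 0.16) for Rpl22, whose product it can replace, and Rps27l had 0.05 (SE 0.15) beside 0.15 (SE 0.13) for Rps27. Rpl10l was not tested: 1 of its 2 probes was well above background on antagomir 3 alone, and the other on antagomir 3 and control 3. Its parent Rpl10 had 0.02 (SE 0.13). Outside the Rpl3 pair, no paralog and parent were separated by array in opposite directions.

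Different probes of a gene gave similar values. Of 54 members with several tested probes, 35 had probes of 1 sign, and the 19 with both signs had no probe beyond 0.19 in either direction. The range between probes of a gene was 0.07 in the median and 0.24 at most. Ribosomal protein genes have many processed copies in the genome that resemble the mRNA, and 12 of 178 probes, on the 6 genes Rps27, Rps29, Rpl13, Rpl31, Rpl36 and Rps4x, have a design position on another chromosome than the gene. Signal from such copies cannot be told apart from that of the gene on these probes.

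The upstream sequences of the members were searched for short motifs. RefSeq promoters (GRCm38.p6, 250 bases before to 50 after the start) were at hand for 62 of the members, in 74 windows. The motif CGGAAG, the core recognised by ETS-family factors such as GABP, or its reverse complement CTTCCG, was present in 60.8% of the member windows and in 16.9% of all 32851 windows. By gene, 42 of the 62 members had it. The member windows were not set against windows of like base content. The motif TATAAA, or its reverse complement TTTATA, was present in 9.46% and 13.6%. A match is a description of the letters and shows no binding. The 150 bases before the start are printed for 3 of the members on the higher side and for Rpl3l, with CGGAAG or CTTCCG in capitals: Rps2 at chr17:24719913-24720062, Rplp2 at chr7:141447501-141447650, Rplp0 at chr5:115559317-115559466 and the first of the 2 starts listed for Rpl3l at chr17:24727676-24727825, all on the plus strand.
Rps2: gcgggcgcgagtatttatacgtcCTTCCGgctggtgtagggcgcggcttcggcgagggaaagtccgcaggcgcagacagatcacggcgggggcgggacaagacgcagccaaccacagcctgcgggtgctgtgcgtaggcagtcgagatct
Rplp2: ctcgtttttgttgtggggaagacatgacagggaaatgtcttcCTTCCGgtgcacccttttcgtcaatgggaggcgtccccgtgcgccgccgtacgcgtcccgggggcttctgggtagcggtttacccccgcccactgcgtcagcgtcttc
Rplp0: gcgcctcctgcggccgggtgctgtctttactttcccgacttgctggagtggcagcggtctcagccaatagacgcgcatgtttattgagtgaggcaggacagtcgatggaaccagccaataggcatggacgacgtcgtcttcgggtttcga
Rpl3l: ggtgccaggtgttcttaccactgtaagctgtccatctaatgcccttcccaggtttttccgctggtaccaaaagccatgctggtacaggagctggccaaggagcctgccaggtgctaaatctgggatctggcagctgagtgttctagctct
The capitals show that the printed stretches of Rps2 and Rplp2 hold the motif once each, and that those of Rplp0 and Rpl3l do not hold these letters.

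Genes that make, load and regulate ribosomes were set beside the members. Rpl36al, Fau and Rack1, ribosomal proteins whose names the rule does not take, gave 0.17 (SE 0.13), 0.13 (SE 0.15) and 0.07 (SE 0.14) on this scaling, and 0.07, -0.09 and -0.09 with quantile scaling. Of 59 tested ribosome biogenesis genes, 38 were higher and the median was 0.07. A single one had an unadjusted p under 0.05, Gnl2, a nucleolar GTPase of large-subunit assembly, which measured 2.69, 2.66 and 2.95 against 3.14, 3.10 and 3.15 (0.36, SE 0.14, adjusted p = 0.67). Pes1, a large-subunit assembly factor, had -0.42 (SE 0.24), the lowest value of that list.

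Of 14 tested genes of RNA polymerase I and its factors, which make the rRNA, 10 were higher with a median of 0.17. With quantile scaling 8 were higher and the median was 0.06. The initiation factors had 31 of 36 higher and a median of 0.14, and the elongation factors with other TOP mRNAs 13 of 18 and 0.11. Their numbers with quantile scaling were 25 of 36 with 0.06 and 6 of 18 with -0.02, so the elongation list turned as the members did. Within it, Eef1a1, the main elongation factor, had -0.23 (SE 0.16), and the non-coding TOP RNA Gas5 had -0.45 (SE 0.20), separated downward at 2.58, 3.16 and 2.66 against 2.23, 2.46 and 2.37. Hnrnpa1, named here because its groups did not overlap, was also separated downward, at -0.18 (SE 0.14), and Eef1d, an exchange factor of elongation, upward at 0.26 (SE 0.16). No gene of these 3 lists had an unadjusted p under 0.05.

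Among 26 genes of the mTOR pathway and other regulators of ribosomal protein synthesis, 19 were higher and the median was 0.15, or 16 and 0.09 with quantile scaling. The one with an unadjusted p under 0.05 was Mycn, a transcription factor of the Myc family, which drives ribosome biogenesis. It measured -1.04, -1.07 and -1.04 on the control arrays and -1.92, -1.64 and -1.81 on the antagomir arrays. On this scaling the control arrays lay close together and all antagomir arrays were clearly below them. The log2 fold change was -0.74 (SE 0.14, unadjusted p = 0.0015 by limma), but its adjusted p was 0.52. With quantile scaling Mycn had -0.90 (SE 0.25, unadjusted p = 0.012 by limma, adjusted p = 0.68). Sesn3, a stress-induced inhibitor of mTOR complex 1, was also separated downward, at -0.37 (SE 0.16). As many genes of the list were separated upward, Tsc1, part of a complex that restrains mTOR complex 1, at 0.23 (SE 0.14) and the mTOR subunit Mlst8 at 0.18 (SE 0.12). The S6 kinases, which the member rule leaves out, had 5 of 9 higher and a median of 0.04.

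**Figure D4:**
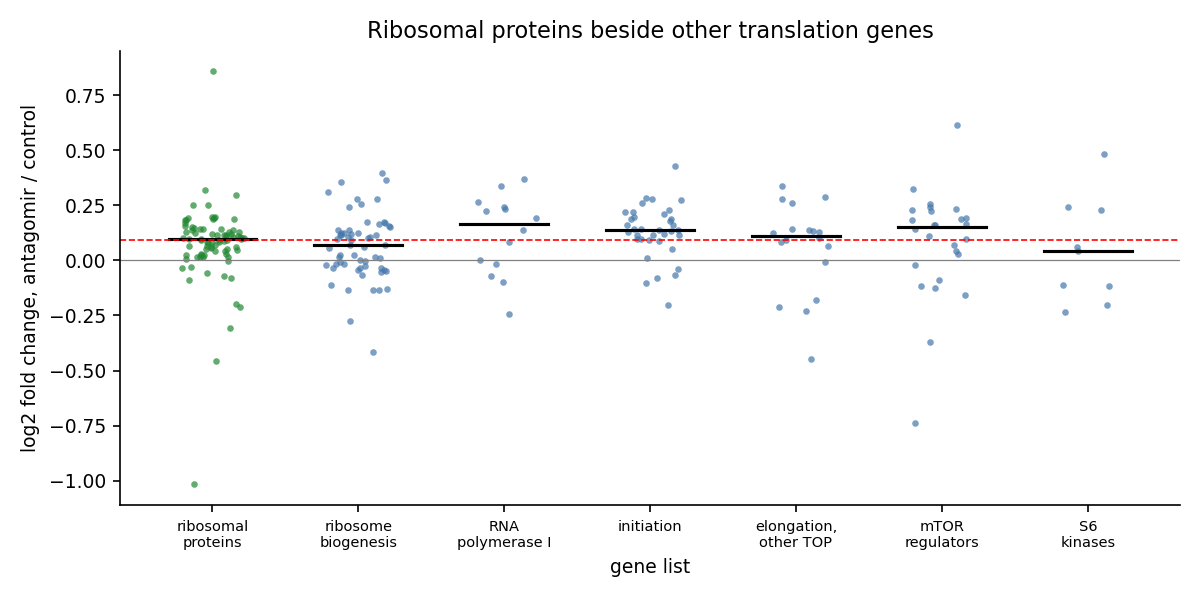
Log2 fold change (antagomir over control, 75th percentile scaling) of each tested gene of the ribosomal protein set and of 6 lists of translation genes; black lines are list medians and the dashed line is the median of all genes tested, 0.09. The medians lie between 0.04 and 0.17, and 74 of the 82 ribosomal protein genes lie within 0.25 of 0; with quantile scaling the medians of the ribosomal protein, elongation and S6 kinase lists fall below 0.

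**Figure D5:**
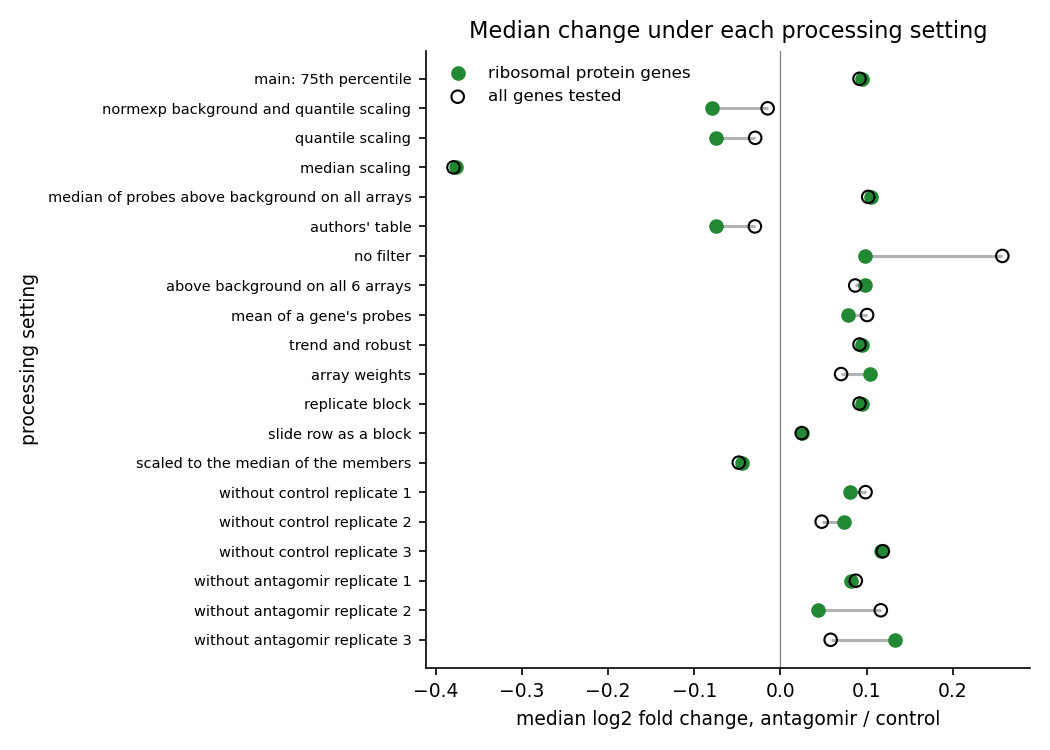
Median log2 fold change (horizontal axis) of the ribosomal protein genes (filled) and of all genes tested (open) under each processing setting (rows). Both medians lie below 0 with quantile scaling, median scaling, scaling to the members' median and in the authors' table, and the largest gap between them is without the filter on dim probes, where the median of all genes is 0.26 and that of the members 0.10.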

How the data were processed

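RNA of 6 heart samples was hybridised to 1-colour Agilent arrays, all on 1 slide. Slide row 1 held controls 1 and 2, and row 2 held control 3 and the antagomir arrays, so group and row cannot be fully told apart. The deposited spot intensity is the processed signal of Agilent Feature Extraction 10.7.1.1 per the submitters' processing notes, background-subtracted and detrended within the array per the file headers. The deposited matrix of log2 values was made by the authors; its columns have matching distributions, as after quantile scaling, and its normalization is not given in the sources used here. Here, the processed signal on the log2 scale was set against the 75th percentile of its array, without control spots and spots flagged as outliers. Spots of a probe were averaged. The test took probes that were well above background on at least 3 arrays, and each gene was read from its brightest such probe. Groups were compared with limma 3.58.1 (R 4.3.3), with Benjamini-Hochberg adjustment over all 22991 genes at 0.05.

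Genes were named from RefSeq through the array's accessions, which named 170 of the 183 member probes. On simulated data with 22991 genes, 61.2% of genes changed by 2 on the log2 scale were called, 4.4% of those changed by 1 and 0% of those changed by 0.5. The simulated spread was drawn from that of all genes, with independent noise. The median within-group SD was 0.10 for the members and 0.27 for all genes, so these rates do not describe the members. Named members were the 6 highest and 6 lowest, the smallest p-values, those with separated groups, the paralogs, the stalk, Rpsa, Rps27a and the 2 brightest. For the lists, up to 4 genes with the smallest p were eligible. The members, lists and tests were chosen with earlier results of these data known. A few members and list genes are not reported here by name.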

Additional observations from a re-analysis of the deposited data

How the results depend on the processing

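The count of members past the threshold was 0 under the 20 other settings. The count with an unadjusted limma p under 0.05, 0 in the reported fit, reached at most 3 of 82. It was 3 with limma's trend and robust options, against 1766 of the 22991 genes tested. With array weights it was also 3, against 2743 genes, and with scaling to the members' median 3, against 1791 genes. The median log2 fold change of the members changed sign from 0.095 to -0.074 with quantile scaling, to -0.079 with normexp background and quantile scaling, to -0.074 in the authors' table and to -0.38 with median scaling, where the median of all genes was -0.38. The members higher with the antagomir were 15, 15, 15 and 1 of 82 in that order, and 20 when each array was scaled to the median of its members, a setting chosen after seeing the data. Apart from the authors' table, whose normalization is not given, these settings differ from the reported one in how arrays are scaled or background is treated. The normexp setting also starts from the mean spot signal and not from the processed signal. Leaving out 1 array in turn gave medians from 0.04 to 0.13 and 60 to 75 members higher. The shift of Rpl3l against Rpl3 ran from 0.53 to 1.71 when 1 array was left out. Under the other scalings and filters it ran from 1.27 to 1.34, but a single scaling value per array cannot change it. At 1.27, with the mean of a gene's probes, the groups overlapped and the exact permutation p was 0.3. The same replicate numbers correlated at 0.22, 0.14 and -0.05 across genes, and unlike numbers at -0.28 to 0.17. These values do not settle whether the numbers pair the samples. With the replicate block the median was 0.10, 70 members were higher, 0 passed, and the Rpl3l shift of 1.31 had an exact p of 0.25. This p too was fixed by the separation of the groups. With the slide row as a block, where control 3 is the only control beside antagomir arrays, the median was 0.02 and 51 of 82 members were higher. Of 25 named members, 6 kept their sign under all settings. Calls over all genes were 3, against 199 with median scaling and 0 to 8 under the remaining settings. Median scaling rests on the array's median signal, which was 77.8 units on antagomir 3 and 26.2 to 34.8 units on the other arrays. Dim probes such as that of Rpl39l are limited by signal near background.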
